A study of Mus musculus with 17 samples.

Results

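Expression of 10 genes of the elastic fibre and of its cross-linking enzymes was examined in cultured tubular cells and whole kidneys of mice. The genes are Eln, Fbn1, Fbn2, Fbln5 and Emilin1, which encode parts of the elastic fibre, and the lysyl oxidase family of Lox, Loxl1, Loxl2, Loxl3 and Loxl4. They were chosen by name, and all 10 were found among the 53313 gene identifiers that the 17 libraries have in common. RNA came from 5 groups. Non-senescent primary tubular epithelial cells (PTEC) were sequenced at day 6 of culture without irradiation (n = 4), and senescent PTEC at day 16 after γ-irradiation with 10 Gray (n = 4). Irradiation and time in culture therefore changed together and cannot be told apart. PTEC were grown out of tubular fragments from collagenase-digested kidneys of C57BL/6JRj mice. Kidneys came from untreated male C57BL/6JRj mice of 3, 12 and 24 months (n = 3 each), so that every kidney holds all cell types of the organ. No group carried a transgene or a deletion according to the labels.

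Elastic fibres give arteries, lung and skin their recoil, and in the kidney they are found mainly in the walls of arteries. Tropoelastin, the product of Eln, is deposited on microfibrils of fibrillins, with fibulins and emilins as adaptors, and is then cross-linked. Lysyl oxidases are copper enzymes that oxidise lysine side chains of elastin and collagens outside the cell, which is the first step of that cross-linking. Senescence is a stable arrest of cell division that comes with a changed set of secreted proteins.

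Levels are given as CPM, the reads counted on a gene scaled to a common library size after TMM normalization, which corrects for differences in composition. Total counts per library ranged from 26963442 to 35409144 in PTEC and from 37311247 to 66894790 in kidneys, and the depth of the kidney libraries rose with age. Different gene sets had been used to count the 3-month and the older kidneys, so that age and gene set cannot be told apart in comparisons with 3 months. Of the 10 genes, 8 have the same identifier version in every set, while those of Lox and Fbn2 differ in the older kidneys. Loxl3 shares 535 exonic bases with Htra2 on the opposite strand, and whether the counting used the strand is not stated, so its values are uncertain. The same limit holds for Fbn1, which shares 2442 exonic bases with Gm9913, Loxl2 (301 with Gm27177), Eln (267 with Gm30003), Fbn2 (129 with Gm26507) and Lox (30 with AC161119.1), all on the opposite strand. Those partners had at most 13 counts over all libraries, and Htra2 had 23284. Each kidney library came from part of 1 mouse's right kidney, so that the kidneys of an age are separate animals. Whether PTEC replicates came from separate animals is not stated, and their p-values measure the spread between these cultures, which may be technical.

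The promoters of Fbln5, which rose in senescent PTEC, and of Loxl4, which did not pass the test there, are shown to set both genes side by side. RefSeq promoters of GRCm38.p6 were available for 4 of the 10 genes, with 5 start sites. The windows end at the base before the start site, are written on the minus strand of the genome from 5′ to 3′, and leave out bases inside annotated exons. Capitals mark a match to a motif searched. The upstream start of Fbln5 lies at chr12:101819119, the downstream start at chr12:101818484 and that of Loxl4 at chr19:42612806.

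Fbln5, upstream start, chr12:101819120-101819369: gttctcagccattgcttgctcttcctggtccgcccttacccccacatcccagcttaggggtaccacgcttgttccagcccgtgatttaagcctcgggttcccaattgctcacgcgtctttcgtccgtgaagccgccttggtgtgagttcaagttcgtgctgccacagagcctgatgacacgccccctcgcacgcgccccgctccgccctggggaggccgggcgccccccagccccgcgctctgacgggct

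Fbln5, downstream start, chr12:101818485-101818733: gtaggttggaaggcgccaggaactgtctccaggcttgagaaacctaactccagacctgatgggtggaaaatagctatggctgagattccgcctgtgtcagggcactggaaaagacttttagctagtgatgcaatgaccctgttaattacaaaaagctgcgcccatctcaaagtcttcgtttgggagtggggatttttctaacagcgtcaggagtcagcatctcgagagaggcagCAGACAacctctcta

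Loxl4, chr19:42612814-42613056: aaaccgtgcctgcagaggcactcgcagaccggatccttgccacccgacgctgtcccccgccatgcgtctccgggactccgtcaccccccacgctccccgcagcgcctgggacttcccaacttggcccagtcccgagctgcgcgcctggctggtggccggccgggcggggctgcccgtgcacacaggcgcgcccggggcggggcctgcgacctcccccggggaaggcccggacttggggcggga

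The full window of 250 bases was 65.2% GC with 21 CpG at the upstream start of Fbln5, 49.6% with 6 CpG at its downstream start and 76.0% with 27 CpG at Loxl4. The median over 32851 promoter windows was 52.4% GC with 6 CpG. Both strands were searched for TGANTCA, bound by AP-1, for GGAATG, bound by TEAD factors, for ACGTG, the core of the hypoxia response element, and for GTCTAGAC and CAGACA, bound by SMAD proteins. These letters occurred in 6.75%, 12.6%, 16.6%, 0.167% and 17.1% of all windows. CAGACA was found at bases -15 to -10 from the downstream start of Fbln5, and at -129 to -124 from the start of Emilin1. None of the 5 motifs was found in the windows of Fbn1, Loxl4 and the upstream start of Fbln5. A match is a description of letters and says nothing about binding.

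In senescent PTEC, 6 of the 10 genes were up-regulated and none was down-regulated. Fbln5 and Lox rose most, to 7.97-fold and 7.72-fold of the level in non-senescent PTEC, followed by Eln, Loxl1, Fbn1 and Loxl3. The log2 fold change of Eln was 1.21 without senescent PTEC 2, below the 1.37 of Loxl3 with all cultures. Emilin1, Fbn2 and Loxl2 had higher means without passing the test, and Loxl4 was the only one of the 10 with a lower mean. When same-numbered cultures were taken as pairs, Loxl2 and Emilin1 were called as well, as given below. A call needed an adjusted p below 0.05 in edgeR's quasi-likelihood test together with a log2 fold change beyond 0.5 in either direction. Among the 15434 genes tested, 20.1% were called up-regulated and 19.7% down-regulated. The median log2 fold change of the 10 genes was 1.56, while that of all genes was near 0 at -0.002. The groups did not overlap in 5 of the 10 genes, beside 42% of all genes tested. Of the 10 genes, 8 had an unadjusted p under 0.05, as had 51.6% of all genes tested.

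**Figure D1:**
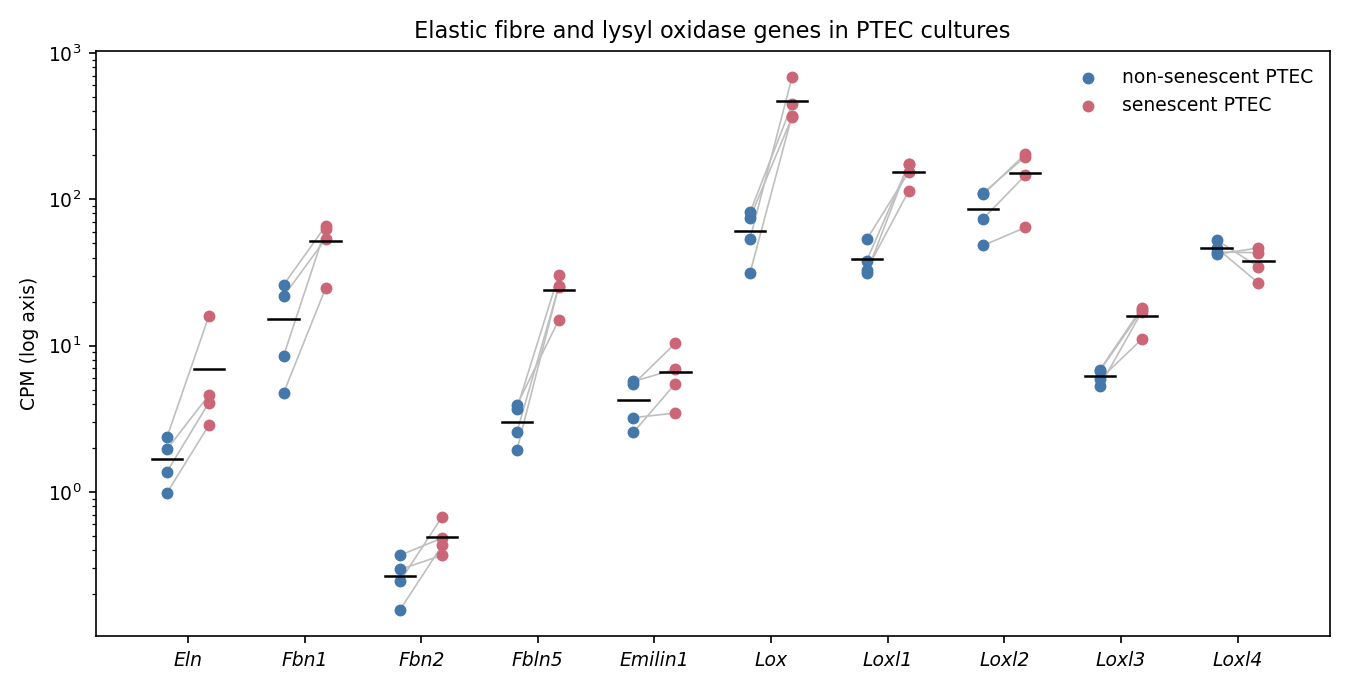
CPM on a log axis of the 10 genes in non-senescent (blue) and senescent (red) PTEC, with 4 cultures per group; grey lines join cultures with the same replicate number and black bars are means. Every line rises but 3 of those of Loxl4, and Lox reaches between 364 and 682 CPM in the senescent cultures.

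Among the structural genes, Eln (ENSMUSG00000029675.12, chr5:134702593-134747323, minus strand) encodes tropoelastin, the elastic core. It measured 0.984, 2.36, 1.37 and 1.96 CPM in non-senescent PTEC 1 to 4 and 2.86, 16.0, 4.08 and 4.59 CPM in senescent PTEC 1 to 4. Every senescent culture lay above every non-senescent one, and senescent PTEC 2 stood far above the others of its group. Expression rose by 2.04 ± 0.55 (SE) on the log2 scale, with an adjusted p of 0.0146 in edgeR. This value ranged from 1.21, without senescent PTEC 2, to 2.30 when each culture was left out in turn, with a highest adjusted p of 0.0419.

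Fbn1 (ENSMUSG00000027204.13, chr2:125300594-125507993, minus strand) encodes fibrillin-1, the main microfibril protein of adult tissue. Its levels were 8.52, 21.8, 4.75 and 26.0 CPM in non-senescent and 62.7, 53.6, 24.6 and 65.7 CPM in senescent PTEC. The groups overlapped, since senescent PTEC 3 lay below non-senescent PTEC 4. Fbn1 rose by 1.76 ± 0.51 (SE) on the log2 scale with an edgeR adjusted p of 0.0193. The call was lost without non-senescent PTEC 1, with an adjusted p of 0.0510, and without the filter on low counts, with an adjusted p of 0.0787. Fbn2 (chr18:58008623-58210487, minus strand), the fibrillin known mainly from development, was close to the limit of detection with 4 to 10 counts per non-senescent and 11 to 21 per senescent culture. Its log2 fold change of 0.86 ± 0.34 (SE) did not pass the test (edgeR adjusted p 0.0653), except without non-senescent PTEC 4 (adjusted p 0.0425).

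Fbln5 (ENSMUSG00000021186.9, chr12:101746565-101819055, minus strand) encodes fibulin-5, which binds tropoelastin and Loxl1 and is needed to assemble elastic fibres. It measured 2.55, 3.91, 1.92 and 3.69 CPM in non-senescent and 25.3, 15.0, 25.6 and 30.5 CPM in senescent PTEC. The lowest senescent culture, number 2, still lay well above the highest non-senescent one. Fbln5 rose by 2.99 ± 0.29 (SE) on the log2 scale with an edgeR adjusted p of 6.12e-05, and it stayed between 2.84 and 3.17 with each culture left out in turn. Emilin1 (ENSMUSG00000029163.9, chr5:30913402-30921277, plus strand) encodes a glycoprotein at the border of elastin and microfibrils. Its means were 4.23 ± 1.58 (SD, n = 4) and 6.56 ± 2.91 CPM (SD, n = 4), the groups overlapped, and the log2 fold change of 0.63 did not pass the test (edgeR adjusted p 0.197). Emilin1 was called with the replicate number as a block, as given below.

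Of the enzymes, Lox (chr18:52516067-52529867, minus strand) encodes the founding lysyl oxidase, which acts on collagen and elastin. It measured 81.4, 74.8, 31.4 and 53.9 CPM in non-senescent PTEC and 445, 364, 374 and 682 CPM in senescent PTEC. The lowest senescent culture was far above the highest non-senescent culture. Lox rose by 2.95 ± 0.33 (SE) on the log2 scale with an edgeR adjusted p of 0.000125. Loxl1 (ENSMUSG00000032334.10, chr9:58287738-58313186, minus strand), the family member most closely tied to elastin, measured 31.4, 38.1, 32.9 and 53.2 CPM against 175, 173, 114 and 153 CPM. The groups were well apart, with senescent PTEC 3 lowest of the senescent cultures. Its log2 fold change was 1.98 ± 0.21 (SE) with an edgeR adjusted p of 8.77e-05.

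Loxl2 (ENSMUSG00000034205.16, chr14:69609068-69695834, plus strand), which cross-links collagen IV of basement membranes, differed mainly by culture number. It measured 108, 110, 48.4 and 73.9 CPM in non-senescent PTEC and 204, 196, 64.2 and 146 CPM in senescent PTEC. Culture 3 was lowest in both groups, and the groups overlapped. Its log2 fold change of 0.84 ± 0.37 (SE) had an edgeR adjusted p of 0.0905 in the fit without pairs. With the replicate number as a block Loxl2 was called up-regulated, as given below. Without senescent PTEC 3 the adjusted p was 0.0119.

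Loxl3 (ENSMUSG00000000693.10, chr6:83034173-83052562, plus strand), which like Loxl2 and Loxl4 carries scavenger receptor domains beside the catalytic one, measured 5.29, 6.73, 5.88 and 6.83 CPM against 17.05, 17.5, 11.1 and 18.1 CPM. Each senescent culture lay above all non-senescent ones. Loxl3 rose by 1.37 ± 0.20 (SE) on the log2 scale with an edgeR adjusted p of 0.000538, with the limit that Htra2 overlaps it. Loxl4 (ENSMUSG00000025185.14, chr19:42593982-42612813, minus strand) measured 52.8, 46.5, 42.0 and 43.7 CPM in non-senescent PTEC and 34.5, 26.8, 46.5 and 43.1 CPM in senescent PTEC. Senescent PTEC 1 and 2 were lower than every non-senescent culture, and senescent PTEC 3 and 4 were not. Its log2 fold change of -0.29 ± 0.18 (SE) did not pass the test (edgeR adjusted p 0.215).

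Since same-numbered cultures deviated together, they were also compared as pairs. Every gene but Loxl4 was higher in the senescent culture in 4 of 4 pairs, while Loxl4 was higher in 1 of 4. The same count over all genes is not given here, so that it describes the 10 genes only. The ratio between the members of a pair ranged from 4.87 to 12.6 for Lox, from 3.83 to 13.3 for Fbln5 and from 2.88 to 5.56 for Loxl1. For Loxl2 it ranged from 1.33 to 1.97. With the replicate number as a block, 8 of the 10 genes were called up-regulated in edgeR, since Loxl2 (log2 fold change 0.78, adjusted p 0.000971) and Emilin1 (0.61, adjusted p 0.0482) were added. In that fit 23.2% of all genes were called up-regulated and 21.3% down-regulated.

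To compare levels between genes, CPM were divided by the length of each gene's merged exons, as CPM per kilobase. Merged exons take in every annotated transcript of a gene, used or not, so that orders and shares depend on this choice of length. In non-senescent PTEC Loxl2 (15.8), Lox (12.6), Loxl1 (11.8) and Loxl4 (11.0) led, and neighbours among these 4 overlapped in their ranges. The other 6 genes followed well below, from Loxl3 (1.34) to Eln (0.206) and Fbn2 (0.0202). Senescent PTEC had an order of their own, with Lox (97.6) above Loxl1 (46.6), Loxl2 (28.2) and Loxl4 (8.95). Here Lox did not overlap with Loxl1, Loxl1 overlapped with Loxl2, and Loxl4 lay apart from both neighbours. Fbn1 (4.26), Fbln5 (3.49) and Loxl3 (3.46) overlapped, and Eln (0.850) stayed next to last before Fbn2 (0.0371).

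The makeup of the lysyl oxidase family differed between the cultures. Summed over the 5 enzymes, CPM per kilobase were 52.5 ± 11.1 (SD, n = 4) in non-senescent and 185 ± 38.6 (SD, n = 4) in senescent PTEC. Of this sum, Lox made up 23.4% ± 4.66 (SD, n = 4) in non-senescent and 52.4% ± 8.40 (SD, n = 4) in senescent cultures, with ranges that did not overlap. The share of Loxl4 was 21.5% and 5.06%, also without overlap, although its own CPM did not pass the test. The share of Loxl2 was 29.4% and 15.1%, without overlap, although its CPM were higher in the senescent culture of every pair. Those of Loxl1 (23.2% and 25.6%) and Loxl3 (2.65% and 1.88%) overlapped. These shares were not tested.

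**Figure D2:**
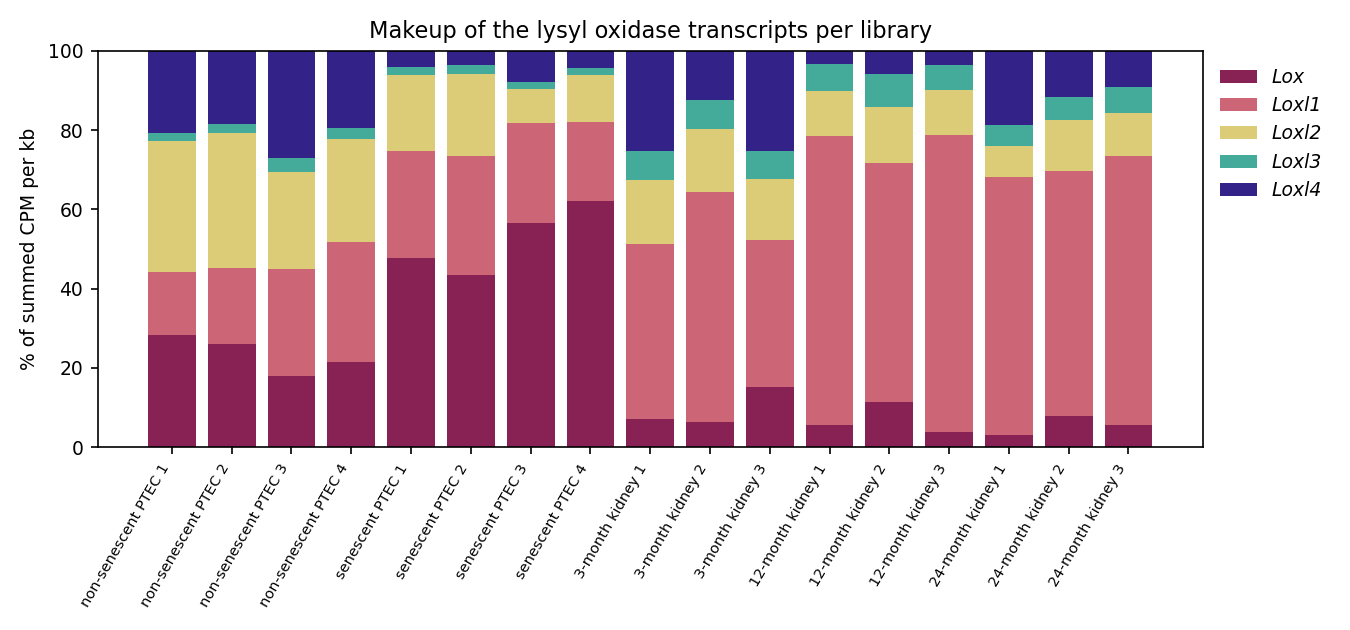
Share of each of the 5 lysyl oxidase genes in their summed CPM per kilobase, in percent, for each of the 17 libraries, stacked to 100. Lox takes the largest share in the senescent PTEC cultures and Loxl1 the largest in every kidney.

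Other genes of the same pathway were described from lists of partners of the elastic fibre, maturation of lysyl oxidases, elastin-degrading proteases and fibril-forming collagens. Of 15 elastic fibre partners, 13 were tested, 6 were up-regulated and 2 down-regulated in the senescent cultures, and the median was 0.89 on the log2 scale. The largest changes were in Ltbp2, a fibulin-5 binding protein of microfibrils (4.27 ± 0.55, SE), Mfap2, a microfibril glycoprotein (3.25 ± 0.53), and Bgn, a small proteoglycan (2.04 ± 0.44). Ltbp2 rose from a mean of 30.3 to 582 CPM, whereas Mfap2 remained under 1 CPM in every culture. The 2 that fell were Fbln1 (-1.23 ± 0.29) and Efemp1 (-1.20 ± 0.28), which are fibulins like Fbln5.

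Of 9 genes of lysyl oxidase maturation, 8 were tested, 4 rose and 3 fell, with a median log2 fold change of 0.81. Fn1, whose fibronectin is a scaffold for Lox and its protease, rose from 1398 to 9255 CPM (log2 fold change 2.73 ± 0.41, SE). Postn, encoding periostin, rose by 3.27 ± 0.38 and Tll1, one of the proteases that cut the Lox propeptide, by 1.86 ± 0.25 on the log2 scale. Bmp1, the main protease of that kind, had a log2 fold change of 1.28 and was called as well. Pcolce2 (-2.21) and Pcolce (-1.05), which enhance procollagen processing by Bmp1, and the copper importer Slc31a1 (-0.67) fell. The genes of this list therefore moved both ways.

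Of 10 elastin-degrading proteases, 9 were tested, and Mmp2 (log2 fold change 3.45), Ctsl (0.99) and Mmp14 (0.77) rose while Mmp12, the macrophage elastase, fell (-2.35). The median of this list was 0.14. Of 9 fibril-forming collagens, all were tested, 7 rose and Col5a3 fell (-1.99), with a median of 2.07. Col11a1 (4.06), Col2a1 (3.85) and Col11a2 (3.12) had the largest log2 fold changes. Col1a1 measured 32.2 and 100.6 CPM and did not pass the test (edgeR adjusted p 0.0571). These lists hold substrates and partners of the 10 genes, and the counts are read beside the 20.1% and 19.7% of all genes.

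Markers of cell types were set beside these values, since a culture can hold more than tubular cells. Of 8 vascular smooth muscle markers, 5 were called up-regulated in senescent PTEC, among them Acta2 (log2 fold change 3.52), Cnn1 (4.37) and Lmod1 (4.46), while Myh11 was not called. Their summed level ranged from 435 to 690 CPM in non-senescent and from 1359 to 2792 CPM in senescent cultures. Of 8 fibroblast and pericyte markers, 6 were tested, 4 rose (Pdgfrb, Dcn, Thy1 and Rgs5) and Cspg4 fell. Their sum ranged from 78.5 to 192 CPM and from 37.7 to 85.8 CPM, most of it Cspg4 (means 105 and 43.9 CPM). The sum of the other 7 markers, taken after the data were seen, ranged from 4.55 to 9.68 CPM in non-senescent and from 15.8 to 28.3 CPM in senescent cultures, and Lum and Dpt had at most 3 counts in every culture.

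The endothelial markers gave no higher call and 1 lower one, with sums from 83.6 to 265 and from 79.0 to 299 CPM. The leukocyte markers gave no higher call and 3 lower ones, with sums from 17.2 to 37.1 and from 9.91 to 34.0 CPM. PTEC 2 had the highest endothelial sum (265 and 299 CPM) and leukocyte sum (37.1 and 34.0 CPM) of its group in both groups, as it had the highest Eln. The same held for the fibroblast and pericyte markers without Cspg4 (9.68 and 28.3 CPM). With Cspg4 included, PTEC 2 was highest only among the senescent cultures (85.8 CPM). Of the proximal tubule markers, 4 of 8 were tested and 1 fell, and Slc34a1, Slc22a6 and Miox had at most 3 counts in every senescent culture. Lrp2, which encodes megalin, measured 100.1, 105, 65.5 and 539 CPM in non-senescent and 318, 176, 117 and 297 CPM in senescent cultures without passing the test. Non-senescent PTEC 4 stood far above its group. Of 6 epithelial markers, none rose and 1 fell, with sums from 3319 to 4790 and from 1283 to 3914 CPM. The part of other cell types in the rise of the elastic fibre genes was not tested. In bulk RNA, more cells of a type and more RNA per cell cannot be told apart.

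In whole kidneys no gene of the 10 was called by edgeR between any ages in the fit of all 9 kidneys without a replicate block, while other settings called Fbln5, Loxl1 or Loxl4 with edgeR. Loxl1, Fbln5, Fbn1 and Emilin1 had higher means at 24 than at 3 months, Eln had a lower one, and the means of Lox were alike. Fbn2 was not tested, with 0 to 11 counts per kidney. The other 9 genes were tested in one fit of all 9 kidneys, and the comparisons with 3 months share those 3 kidneys.

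**Figure D3:**
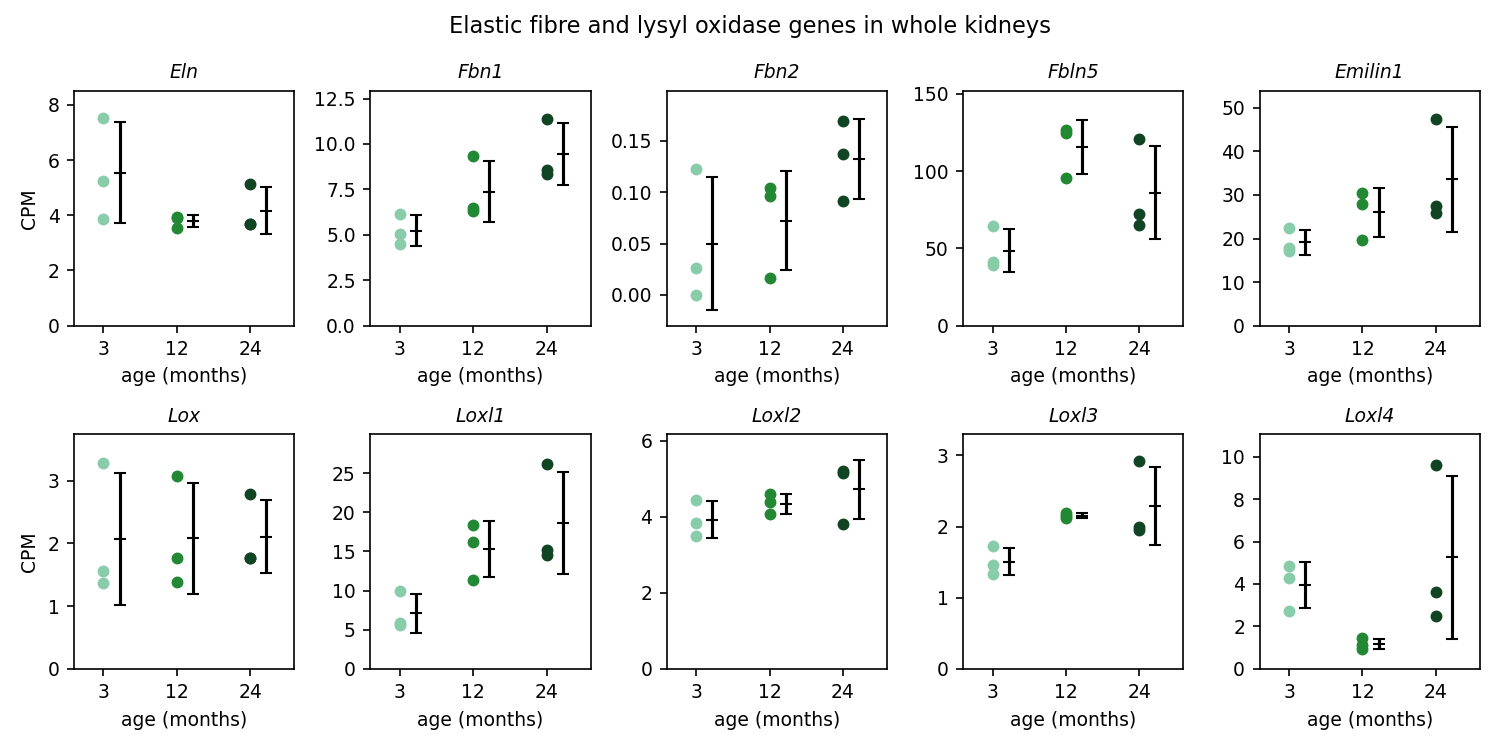
CPM of the 10 genes in whole kidneys by age in months, 1 panel per gene with its own axis; points are kidneys (n = 3 per age) and bars are mean ± SD. Loxl1 lies between 5.56 and 9.96 CPM at 3 months and between 14.6 and 26.2 CPM at 24 months, while the ages overlap for Lox.

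Between 24 and 3 months, 0 of the 9 genes were called, beside 1.89% of 17067 genes up-regulated and 0.451% down-regulated, while 5 of the 9 and 18.2% of all genes had an unadjusted p under 0.05. The median log2 fold change was 0.60, and 8 of the 9 were higher. The ages did not overlap in 5 genes (Fbn1, Fbln5, Emilin1, Loxl1 and Loxl3), beside 22% of all genes tested. DESeq2 called 2 of the 9, Loxl1 (log2 fold change 1.37, adjusted p 0.00162) and Fbn1 (0.84, adjusted p 0.00987), beside 5.14% of all genes called higher and 2.35% called lower by that tool.

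Between 12 and 3 months, 0 were called, beside 1.22% up-regulated and 1.36% down-regulated, and 5 of the 9 and 16.5% of all genes had an unadjusted p under 0.05. The median was 0.44, and the ages did not overlap in Fbn1, Fbln5, Loxl1, Loxl3 and Loxl4, beside 20.3% of all genes. DESeq2 called Fbln5 (1.24, adjusted p 0.00106) and Loxl1 (1.10, adjusted p 0.0186) higher and Loxl4 lower (-1.77, adjusted p 0.00587), beside 3.95% and 3.78% of all genes. Between 24 and 12 months, counted on the same gene set, 0 were called beside 0.896% and 0.434%, with a median of 0.13, and 1 of the 9, Loxl4, and 15.2% of all genes had an unadjusted p under 0.05. Only Loxl4 did not overlap between these ages, beside 25.6% of all genes, and DESeq2 called it higher at 24 months (2.16, adjusted p 0.000448), beside 3.47% of all genes called higher and 2.26% lower.

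**Figure D4:**
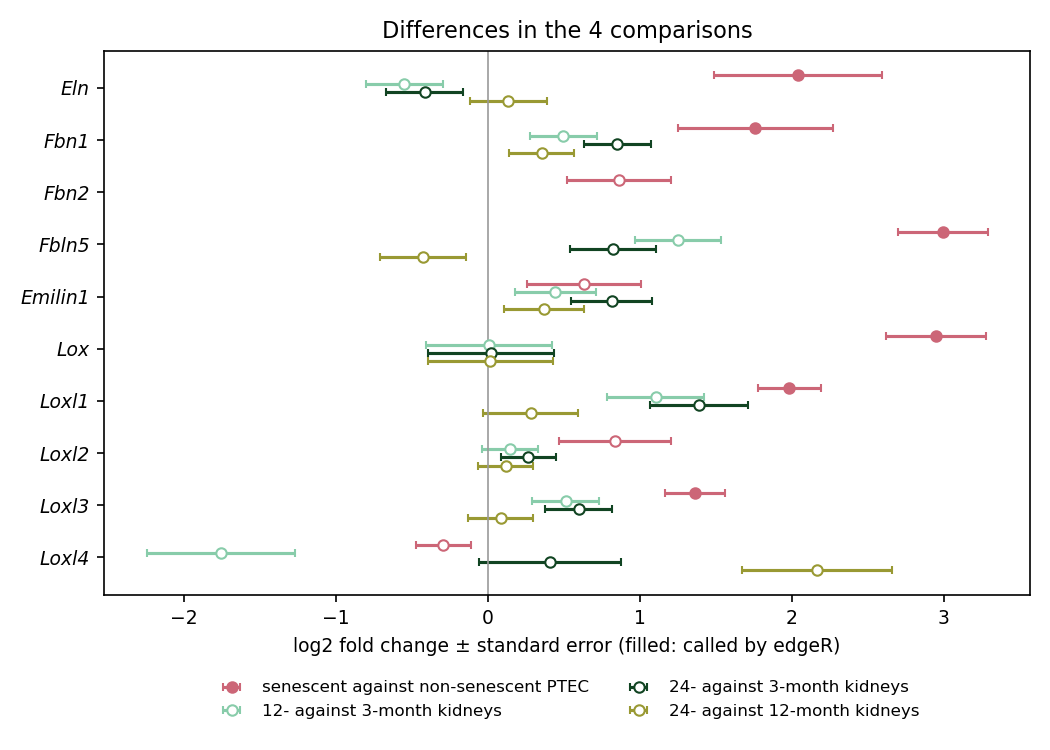
Log2 fold changes with their standard errors for the 10 genes in the 4 comparisons; filled points were called by edgeR and open points were not. The 6 filled points are all from PTEC, and Fbn2 has no point for kidneys.

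By level per kilobase, the kidney order differed from that of PTEC. Fbln5 (7.02, 16.7 and 12.5 CPM per kilobase at 3, 12 and 24 months), Emilin1 (3.87, 5.27 and 6.80) and Loxl1 (2.15, 4.65 and 5.65) led at every age. Fbln5 did not overlap with Emilin1 at 3 and 12 months and did at 24 months, and Emilin1 overlapped with Loxl1 at 12 and 24 months. Lox, first in senescent PTEC, measured only 0.433, 0.435 and 0.441. Eln measured 0.685, 0.469 and 0.515, and Fbn2 was last at each age. PTEC and kidneys were scaled separately, so that only the orders are set side by side.

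Fbln5 measured 39.5, 64.8 and 41.4 CPM in the 3-month kidneys, 95.6, 127 and 125 CPM at 12 months and 121, 72.0 and 65.4 CPM at 24 months. All 6 older kidneys lay above the 3-month ones, closely so for 24-month kidneys 2 and 3. Log2 fold changes were 1.25 ± 0.28 (SE) at 12 against 3 months (edgeR adjusted p 0.0553), 0.83 ± 0.28 at 24 against 3 months (adjusted p 0.178) and -0.43 ± 0.28 at 24 against 12 months (adjusted p 0.496). Without 3-month kidney 2 the first of these was 1.52 with an adjusted p of 0.0265, and without 24-month kidney 1 the second was 0.50 with an adjusted p of 0.535.

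Loxl1 measured 5.80, 9.96 and 5.56 CPM at 3 months, 16.2, 11.3 and 18.4 CPM at 12 months and 26.2, 15.2 and 14.6 CPM at 24 months. The 3-month kidneys were below all older ones, with kidney 2 the highest of them. Its difference on the log2 scale was 1.39 ± 0.32 (SE) at 24 against 3 months (edgeR adjusted p 0.0637) and 1.11 ± 0.32 at 12 against 3 months (adjusted p 0.114). Without 3-month kidney 2 these were 1.72 (adjusted p 0.0285) and 1.44 (adjusted p 0.0474), which would pass the test.

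Fbn1 measured 4.49, 6.15 and 5.02 CPM at 3 months, 6.31, 9.33 and 6.48 CPM at 12 months and 11.4, 8.34 and 8.57 CPM at 24 months. The 24-month and 3-month kidneys were apart, and the 12-month ones lay narrowly above 3-month kidney 2. The log2 fold change at 24 against 3 months was 0.85 ± 0.22 (SE) with an edgeR adjusted p of 0.0870. Emilin1 measured 17.04, 22.5 and 17.8 CPM, then 27.9, 19.8 and 30.4 CPM and then 47.4, 27.4 and 25.9 CPM. Its 24-month kidneys were above the 3-month ones, and kidney 1 stood out among them. That difference was 0.81 ± 0.27 (SE) on the log2 scale with an edgeR adjusted p of 0.161, and 0.49 with an adjusted p of 0.491 without kidney 1.

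Eln measured 5.25, 7.52 and 3.87 CPM at 3 months, 3.90, 3.55 and 3.94 CPM at 12 months and 3.68, 3.68 and 5.15 CPM at 24 months. The ages overlapped, and 3-month kidney 2 was the highest of all 9. The log2 fold change was -0.55 ± 0.25 (SE) at 12 against 3 months (edgeR adjusted p 0.334) and -0.41 ± 0.25 at 24 against 3 months (adjusted p 0.388). With each kidney left out in turn these ranged from -0.75 to -0.26 and from -0.62 to -0.12. Lox measured 1.37, 1.56 and 3.28 CPM, then 1.77, 3.08 and 1.39 CPM and then 1.77, 2.78 and 1.77 CPM. Each age had 1 kidney near 3 CPM, and the log2 fold change of 24 against 3 months was 0.02 ± 0.41 (SE).

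Loxl4 had its lowest mean at 12 months, with 4.28, 2.72 and 4.86 CPM at 3 months, 0.937, 1.43 and 1.14 CPM at 12 months and 9.62, 3.63 and 2.50 CPM at 24 months. The 12-month kidneys were below all others, and 24-month kidney 1 was far above its group. The log2 fold change was -1.75 ± 0.49 (SE) at 12 against 3 months (edgeR adjusted p 0.103) and 2.16 ± 0.49 at 24 against 12 months (adjusted p 0.0749). Without 24-month kidney 1 the second of these was 1.39 with an adjusted p of 0.162. Same-numbered 12- and 24-month kidneys deviated together, although they came from separate mice. Their pairing was taken from these same data, and what the number marks is not stated. With these ages alone and the replicate number as a block, Loxl4 was called higher at 24 months (1.94, edgeR adjusted p 0.0443). That comparison was added after the data were seen and called 7.77% of all genes higher and 5.41% lower. With the block in the fit of all kidneys, 0% of genes were called higher and 0% lower at 24 against 12 months. At 24 against 3 months the log2 fold change of Loxl4 was 0.41 with all kidneys and -0.36 without 24-month kidney 1.

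Loxl3 had means of 1.51, 2.15 and 2.29 CPM and Loxl2 of 3.92, 4.34 and 4.72 CPM at 3, 12 and 24 months. Loxl3 was below 1.73 CPM in each 3-month kidney and above 1.94 CPM in each older one, and its log2 fold change at 24 against 3 months was 0.60 (edgeR adjusted p 0.203). That of Loxl2 was 0.27 (adjusted p 0.427), with overlapping ages. Summed over the 5 lysyl oxidases, CPM per kilobase were 4.58 ± 0.595, 6.63 ± 0.876 and 8.71 ± 3.04 (SD, n = 3 each) at 3, 12 and 24 months. Loxl1 made up 46.4%, 69.4% and 65.0% of the sum, and Lox 9.51%, 6.89% and 5.52%.

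Single kidneys were highest of their age for several of the genes at once. Kidney 2 was the highest of the 3-month kidneys for 8 of the 10 genes, and kidney 1 the highest of the 24-month kidneys for 7. The same counts over all genes are not given here, so that these describe the 10 genes only. Endothelial markers summed to 274, 356 and 291 CPM at 3 months, 458, 409 and 442 CPM at 12 months and 441, 246 and 274 CPM at 24 months, so that the same 2 kidneys were highest of their ages. Smooth muscle markers summed to 145 to 152 CPM, 129 to 141 CPM and 153 to 203 CPM, with 24-month kidney 1 at 203. Of these 16 markers, none was called at 24 against 3 months, and Cnn1 was lower at 12 than at 3 months (-1.73). Fibroblast and pericyte markers summed to 104 to 139 CPM, 134 to 163 CPM and 136 to 158 CPM, with no gene called in any comparison of ages. Leukocyte markers summed to 38.9 to 57.1, 64.7 to 84.0 and 71.0 to 103 CPM, also with no gene called. Proximal tubule markers summed to 10155, 13545 and 7402 CPM at 3 months, 14593, 8874 and 15359 CPM at 12 months and 16391, 12437 and 16290 CPM at 24 months. Here too 3-month kidney 2 and 24-month kidney 1 were highest of their ages, the latter only narrowly. Of these 8 markers, Slc5a2 (1.88), Slc5a12 (1.56) and Miox (0.74) were called higher at 24 than at 3 months. Epithelial markers summed to 1272 to 1627, 880.0 to 1579 and 1338 to 1808 CPM, and Krt18 (-2.21) and Epcam (-1.10) of 6 were called lower at 12 than at 3 months. Among the 3-month kidneys, kidney 2 was not highest for fibroblast and pericyte (119 CPM), leukocyte (38.9 CPM, the lowest) and epithelial markers (1586 CPM). Among the 24-month kidneys, kidney 1 was highest for each of these lists as well. The part of these cell types in the levels was not tested.

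In the lists of related genes, 2 of 14 elastic fibre partners and 1 of 8 proteases tested were called higher at 24 than at 3 months, beside 1.89% of all genes, and 1 partner was higher at 24 than at 12 months, beside 0.896%. Ltbp2 rose from 0.263, 0.430 and 0.472 CPM at 3 months to 2.76, 1.88 and 3.03 CPM at 24 months, with a log2 fold change of 2.70 ± 0.31 (SE, edgeR adjusted p 0.00398). It was also higher than at 12 months (1.88 ± 0.29, adjusted p 0.0240). Fbln1 rose from 3 to 24 months by 1.01 ± 0.21 (adjusted p 0.0447), opposite to its direction in senescent PTEC. Of the proteases, only Ctss, which encodes the elastin-cutting cathepsin S of macrophages, was called, at 24 against 3 months (1.30 ± 0.20, edgeR adjusted p 0.0152). In lysyl oxidase maturation and fibril-forming collagens no gene was called at any age, and all 6 collagens tested had higher means at 24 than at 3 months, with a median of 0.71.

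Across the 9 kidneys the 10 genes did not vary as one group. Of the 36 pairs among the 9 tested genes, 22 had a positive Pearson r of log2 CPM, with a median of 0.15. All 15 pairs among Fbn1, Fbln5, Emilin1, Loxl1, Loxl2 and Loxl3 had an r between 0.66 and 0.94, with Loxl1 and Loxl3 highest. This set of genes was named after the values of r were seen, and r between other pairs of genes is not given here. Eln had a negative r with all tested genes but Loxl4, the lowest with Lox (-0.53). These kidneys differ in age, depth and gene set, and r is a description here. Of the 13318 genes compared whose mean reached 1 CPM, those most like Eln were Ccdc170 (r = 0.950), Prkcq (0.949), Ninl (0.918), Slc35f1 (0.908) and Cnot11 (0.903). Those most like Lox were Spc24 (0.956), Gm31992 (0.931), Gm12174 (0.929), Vps35 (0.929) and 1500015A07Rik (0.928). Such genes are the highest of 13318 values of r over 9 kidneys. The r that unrelated genes would reach in such a search is not given here.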

How the data were processed

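The authors enriched and sequenced mRNA for 17 libraries (8 PTEC, 9 kidneys). Their supplement describes poly(A) selection and stranded paired-end libraries for a pool of 9, without naming the samples in it. The authors processed the reads with nf-core/rnaseq 1.4.2 on GRCm38 and deposited their counts per gene as they were, with no scaling. Which aligner and counter were used, and whether counting was stranded, is not given in the sources used here. Counts were made on 3 gene sets and were joined on identifiers without version. Positions are from GENCODE release M21 of GRCm38.

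PTEC and kidneys were fitted apart with edgeR 4.0.16 in R 4.3.3 (TMM scaling, filterByExpr, robust quasi-likelihood test, Benjamini-Hochberg adjustment over all genes tested). This differs from the study's DESeq2, which was run as an alternative (version 1.42.0) beside other scalings, filters, thresholds, a replicate block, the compared ages alone and each library left out in turn. SE are the log2 fold change over the root of F. The fit was tested on simulated data. Tables and plots used Python 3.11.15, pandas 2.3.3 and matplotlib 3.10.9. The precision of low genes is set by counting: a count of 0 allows up to 3 counts, and this covers counting error only.

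The 10 genes and all lists were chosen with earlier results of these data known. Named genes were the 10, the up to 3 highest and 3 lowest called genes of each list, genes of a list at or near 0, and the 5 genes most like Eln and Lox; Bmp1, Mmp14, Col1a1 and the cell type markers named were chosen after their values were seen. Same-numbered PTEC deviated together (r from 0.203 to 0.671 in 4 pairs), as did 12- and 24-month kidneys (0.301 to 0.674), and were taken as paired from these values, since the labels give only the number. Protein sequences and the other promoters were not used here.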

Additional observations from a re-analysis of the deposited data

Results flagged for a closer look

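Of the 10 genes in the 2 groups of 4 cultures, 20 sets of values were checked for a sample far from the others, and 2 were found, where chance gives about 1 in 20. Eln measured 16.0 CPM in senescent PTEC 2, far above the other senescent cultures (2.86 to 4.59 CPM). That culture also had the highest sums of endothelial (299 CPM) and leukocyte markers (34.0 CPM) of its group. It was highest as well for the fibroblast and pericyte markers without Cspg4 (28.3 CPM). The part of these cell types in the value was not tested. Loxl3 measured 11.1 CPM in senescent PTEC 3, below the other 3 (17.05 to 18.1 CPM).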

How the results depend on the processing

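In senescent PTEC, Eln, Fbln5, Lox, Loxl1 and Loxl3 were called up-regulated under every alternative run. The number called up-regulated was 6 with RLE scaling, DESeq2 and other fold change thresholds, 5 without the filter on low counts, 8 with the replicate block and 5 to 7 with each culture left out in turn. Of all genes, 19.8% were called up-regulated with RLE scaling, 20.7% with DESeq2, 13.4% and 22% with a log2 threshold of 1 and none, 11.9% of 30570 without the filter, 23.2% with the block and 16.8% to 21.4% with a culture left out. In kidneys, where edgeR called 0, DESeq2 called 2 higher at 24 against 3 months, 2 higher and 1 lower at 12 against 3 months and 1 higher at 24 against 12 months, and the reason was not tested. Without the filter 1 gene (Fbln5, adjusted p 0.0386) was called higher at 12 against 3 months, as were 0.689% of all genes. With the compared ages alone and the replicate block, 1 was called at 24 against 12 months. With the block in the fit of all kidneys, 0% of all genes were called in that comparison. With each kidney left out in turn, 0 to 1 were called at 24 against 3 months and 0 to 2 at 12 against 3 months, the higher numbers without 3-month kidney 2. Of all genes, 0.298% to 2.62% and 0.177% to 1.42% were called higher in these fits, the most again without that kidney. The replicate block changed no other call in kidneys, where same-numbered 3-month kidneys did not pair with the older ones (r from -0.788 to -0.0320).

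Lox at 12 against 3 months turned to -0.0018 with RLE scaling, -0.0020 with DESeq2 and -0.0106 with the replicate block. With each kidney left out, its log2 fold change ranged from -0.39 to 0.51 at 12 against 3 months, from -0.22 to 0.52 at 24 against 3 months and from -0.23 to 0.41 at 24 against 12 months. At 24 against 12 months Loxl1 ranged from -0.041 to 0.44, Loxl3 from -0.13 to 0.18 and Eln from -0.048 to 0.22, and Loxl4 at 24 against 3 months from -0.36 to 0.74. Depth limits Fbn2 most, with 0 to 21 counts in any library.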
